A study of Mus musculus with 5 samples.

Results

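The Ly49 receptors are encoded by the Klra genes, a family of near-identical genes next to each other in the natural killer gene complex of mouse chromosome 6. They are lectin-like receptors of natural killer cells (NKC), and most of them bind MHC class I molecules on the cells that an NKC inspects. The inhibitory members recruit phosphatases and hold the cell back, whereas the activating members pair with the adaptor Tyrobp (DAP12). Each NKC expresses only some of the Klra genes, so that the receptors are spread unevenly over the NKC of a mouse. Runx3 is a transcription factor of cytotoxic lymphocytes that binds the RUNX motif, and monomethylation of histone H3 at lysine 4 (H3K4me1) is a chromatin mark found at enhancers and around promoters.

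Runx3 and H3K4me1 peaks were examined at 10 genes, Klra1 to Klra10, out of 22350 protein-coding genes of the 19 autosomes and chromosome X. A peak was counted for a gene when it overlapped the annotated gene or the 20 kb to either side by at least 1 bp. The data came from splenic NKC of ICR mice, an outbred strain. The cells were purified by negative selection and, by the paper's methods, FACS sorting for the surface marker DX5. They were kept for 7 days in 1000 units/ml of human IL-2. Chromatin of cultured cells was precipitated with an in-house polyclonal anti-Runx3 antibody in 2 libraries, with an anti-H3K4me1 antibody in 1 library, and with non-immune rabbit serum (NIS), the control, in 2 libraries. The groups of libraries differed by their labels in the antibody, and no untreated or Runx3-deficient cells were part of these data. The Runx3 libraries are labelled as biological replicates of cells from individual mice, but their reads were joined before peaks were called. The lists therefore give 1 position per peak for the joined libraries, with no height and no replicate error, and no test between groups could be made. Sequencing depth cannot be read from the lists, but the paper reports more uniquely aligned reads for Runx3 than for H3K4me1 in these cells. It scaled the larger read set to the smaller when peaks were called.

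Among 6 NKC marker genes, including Ncr1 and Klrb1c, all 6 had a Runx3 peak and all 6 an H3K4me1 peak in the same kind of window. The T cell genes Cd8a and Cd8b1 had neither, the T cell genes Cd4 and Cd3e had both, the B cell gene Ms4a1 had neither, and the myeloid genes Csf1r and Itgam had both. A peak is not expression, so these counts describe the lists and not the purity of the cells.

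In IL-2-activated NKC, 8 Runx3 peaks of the 11676 in the list and 6 H3K4me1 peaks of the 34204 lay in the windows of the Ly49 genes. They fell at 5 places. Those at the start of Klra1, at and upstream of the start of Klra5, upstream of Klra7 and upstream of Klra2 held both marks, and a single Runx3 peak beyond the end of Klra5 had no H3K4me1 peak near it. Klra1 encodes Ly49A, Klra5 Ly49E, Klra7 Ly49G and Klra2 Ly49B, which are inhibitory receptors. No peak of either list lay within 20 kb of Klra3, Klra4, Klra6, Klra8 or Klra10, which encode the inhibitory receptors Ly49C, Ly49F and Ly49J and the activating receptors Ly49D and Ly49H. Thus 5 of the 10 genes had a Runx3 peak, close to the 41.1% of all protein-coding genes, and 5 had an H3K4me1 peak, close to the 51.1% of all protein-coding genes. Klra9 (Ly49I) was counted among the 5 only because 1 of its annotated transcripts runs over Klra7 and Klra10. Without that transcript, 4 genes had a Runx3 peak and 4 an H3K4me1 peak. By gene, Runx3 peaks numbered 3 at Klra5, 2 at Klra2, Klra7 and Klra9 and 1 at Klra1, and the peaks counted for Klra9 were those of Klra7.

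**Figure D1:**
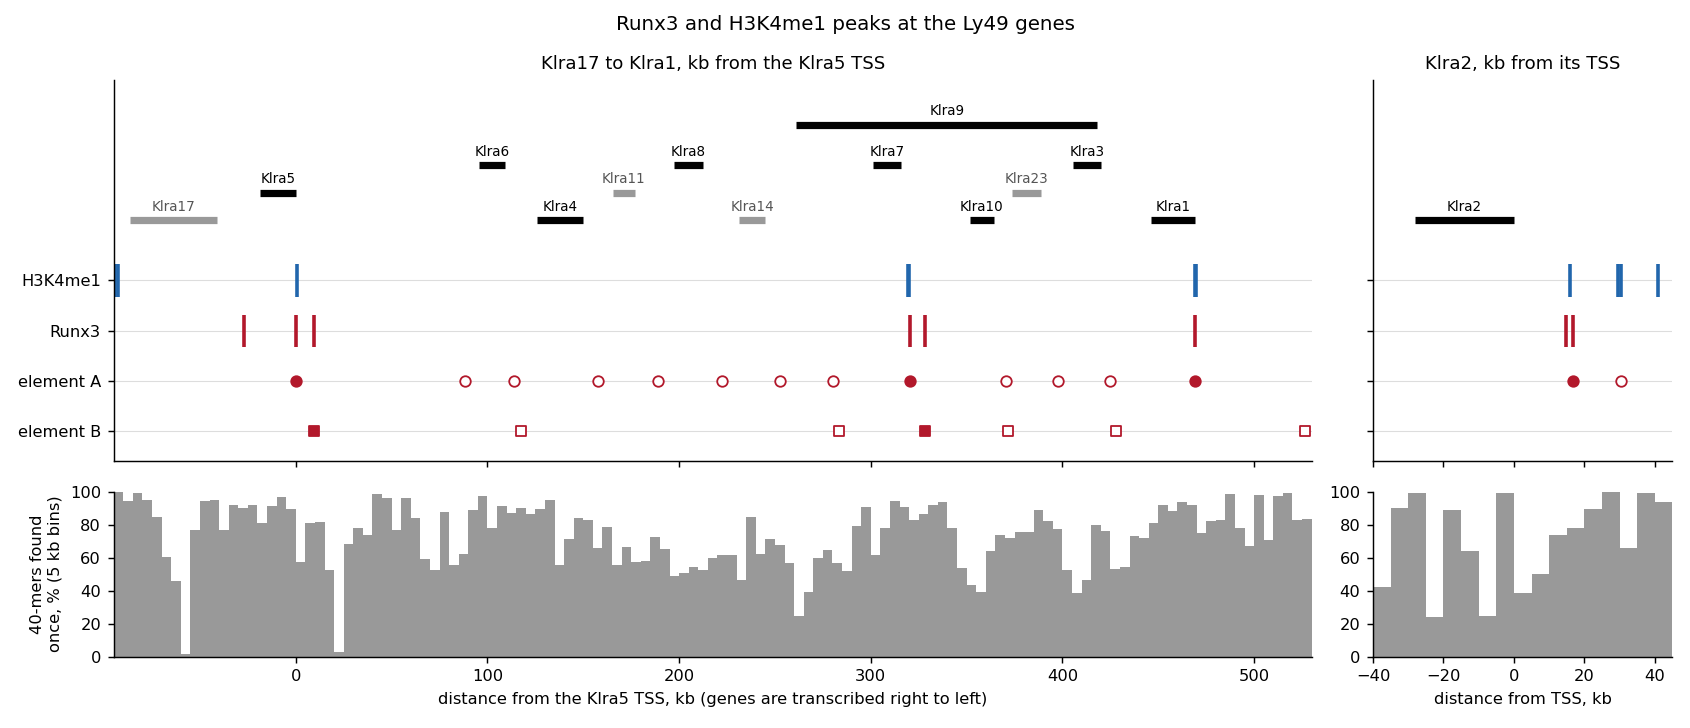
Peaks of the 2 lists along the Ly49 genes, in kb from the TSS of Klra5 (left) and of Klra2 (right). Black bars are the 10 genes and grey bars other annotated Klra genes, vertical marks are H3K4me1 (blue) and Runx3 (red) peaks, circles and squares are copies of elements A and B (filled under a Runx3 peak), and the lower panels show the share of 40-mers found once in the genome in bins of 5 kb. The Runx3 peaks stand at 5 places, that beyond the end of Klra5 without H3K4me1. A stretch of 310 kb between the peaks upstream of Klra5 and those upstream of Klra7 holds no Runx3 peak.

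The Runx3 peaks of Klra1, Klra5 and Klra7 lay over copies of the same DNA element, called element A here. A diverged copy lay under a peak of Klra2, while the copies at the other Ly49 genes held no peak, and the sequence is shown first for this reason. The promoter of Klra1 is printed as the 300 bases that precede its annotated start (chr6:130336893-130337192 of mm9, minus strand, which is the strand of the gene), with the RUNX motif in capitals. It overlapped no annotated exon.
Klra1 promoter: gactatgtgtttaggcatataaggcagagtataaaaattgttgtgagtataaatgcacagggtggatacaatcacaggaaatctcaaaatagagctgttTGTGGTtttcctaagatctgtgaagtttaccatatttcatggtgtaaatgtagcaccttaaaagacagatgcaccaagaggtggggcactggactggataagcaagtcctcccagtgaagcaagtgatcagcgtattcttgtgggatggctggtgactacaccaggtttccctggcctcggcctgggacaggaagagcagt

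The RUNX motif was searched on both strands in 4 variants, namely TGTGGT, its variant with a final C (TGTGGC), and the same pair with C as the middle pyrimidine (TGCGGT, then also TGCGGC). The ETS motif was searched on both strands as AGGAAA, with a final G as AGGAAG, and with a leading C as CGGAAA or else as CGGAAG. The motif TGTGGT of the Klra1 promoter was the only RUNX motif present at the aligned place in all 3 of these Runx3 peaks. It was followed without a gap by tttcct, the reverse complement of the ETS variant AGGAAA. The stretch around this place is shown for the copy of element A nearest upstream of each of the 10 genes, read in the direction of the gene, with the RUNX motif in capitals where it was present at the aligned place. The copies of Klra1, Klra7, Klra5 and Klra2 lay under Runx3 peaks and the others did not. The copy of Klra8 overlaps an exon annotated on the opposite strand, so only its middle 30 bases are given.
Klra1, Runx3 peak: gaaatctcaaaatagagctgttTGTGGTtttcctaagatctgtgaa
Klra7, Runx3 peak: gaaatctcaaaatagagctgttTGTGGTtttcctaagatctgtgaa
Klra5, Runx3 peak: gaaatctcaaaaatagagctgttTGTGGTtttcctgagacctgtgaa
Klra10, no peak: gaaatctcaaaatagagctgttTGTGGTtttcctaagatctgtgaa
Klra6, no peak: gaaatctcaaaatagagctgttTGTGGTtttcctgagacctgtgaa
Klra9, no peak: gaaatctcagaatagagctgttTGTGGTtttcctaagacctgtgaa
Klra3, no peak: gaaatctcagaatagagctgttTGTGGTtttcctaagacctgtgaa
Klra4, no peak: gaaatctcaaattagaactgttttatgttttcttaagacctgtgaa
Klra8, no peak: caaaatagaagttttgtgttttcttaagac
Klra2, Runx3 peak: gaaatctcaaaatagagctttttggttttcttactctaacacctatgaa

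These stretches separated the genes by the RUNX motif. It was present in 7 of the 10 copies, those of Klra1, Klra3, Klra5, Klra6, Klra7, Klra9 and Klra10, all of which encode inhibitory receptors. It was not found at this place in the copies of Klra4 and Klra8, which encode the activating receptors Ly49D and Ly49H, or in that of Klra2. The ETS variant that follows the motif was likewise present in the same 7 copies and not in the other 3. Over the 46 bases, Klra10 did not differ from Klra1 and Klra7, although it had no peak, while Klra3, Klra5, Klra6 and Klra9 each lacked 2 of the bases of Klra1 in the alignment, Klra2 lacked 5, Klra8 lacked 6 and Klra4 lacked 7. The adjacent pair of motifs was defined after these sequences were seen. A longer pattern is rarer than a shorter one by its length alone, so its shares are a description and not a finding. The pair was found in 0.113% of the 292628 windows of 500 bp along chromosome 6. It was found in 0.745% of all Runx3 peaks, which had a median width of 704 bp. These were 87 peaks, of which 3 were those of Klra1, Klra5 and Klra7. A RUNX motif alone was found in 49.7% of the same windows of 500 bp and in the 250 bp upstream of the start of 37.5% of all protein-coding genes. The reference sequence is that of C57BL/6 mice, and these bases were not read from the ICR mice.

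At Klra1, the Runx3 peak spanned 130336747 to 130337432 and was centred 197 bp upstream of the annotated start, in the promoter printed above. The RUNX motif of element A lay 1 bp from the centre of this peak of 686 bp. It overlapped both H3K4me1 peaks of the gene, at 130336804 to 130337169 and at 130337309 to 130337738, which together covered 71.4% of it. The RUNX motif fell inside the former of these H3K4me1 peaks, 198 bp upstream of the start.

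At Klra5, the Runx3 peak nearest to the gene spanned 129867423 to 129867992 and was centred 39 bp upstream of the outermost annotated start. The motif of element A lay 60 bp from its centre and 99 bp upstream of that start. No H3K4me1 peak overlapped it, and the single one of the gene, at 129868199 to 129868467 and 269 bp wide, began 206 bp further upstream. A further Runx3 peak lay 9356 bp upstream, at 129876791 to 129877257, with the nearest H3K4me1 peak 8323 bp away. The third one counted for Klra5, at 129840633 to 129841091, lay beyond the end of the gene. It was nearer to Klra17, a neighbouring gene that is not among the 10, and was centred 14172 bp upstream of its start, with the closest H3K4me1 peak 27107 bp away.

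At Klra7, the Runx3 peak over element A spanned 130187558 to 130188260 and was centred 4569 bp upstream of the nearest annotated start, with the RUNX motif 9 bp from its centre. An H3K4me1 peak, at 130187510 to 130187930, covered 53.1% of it, and another H3K4me1 peak lay on the side of the gene at 130186715 to 130187438. A second Runx3 peak, at 130195847 to 130196296, was centred 12731 bp upstream and overlapped no H3K4me1 peak. Both peaks lay in what is annotated as an intron of the long transcript of Klra9.

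At Klra2, which stands apart from the other Ly49 genes, both Runx3 peaks lay far upstream, centred 14831 bp and 16790 bp from the start. They spanned 131211862 to 131212560 and 131213823 to 131214517, and an H3K4me1 peak of 852 bp, at 131212909 to 131213760, filled most of the space between them. It overlapped neither, with gaps of 348 and 62 bp. Klra2 is the nearest Klra gene, but another annotated gene of the same strand, Gm5582, starts nearer to the outer peak. The outer peak lay over a diverged copy of element A, at most 79.9% identical to any other copy over 500 bp, which did not hold the shared RUNX motif. Its central 300 bases (chr6:131214021-131214320, minus strand) held 1 RUNX motif, at another place and in capitals below, shown because it is the 1 copy of element A with a peak and without the shared motif.
Klra2, outer peak: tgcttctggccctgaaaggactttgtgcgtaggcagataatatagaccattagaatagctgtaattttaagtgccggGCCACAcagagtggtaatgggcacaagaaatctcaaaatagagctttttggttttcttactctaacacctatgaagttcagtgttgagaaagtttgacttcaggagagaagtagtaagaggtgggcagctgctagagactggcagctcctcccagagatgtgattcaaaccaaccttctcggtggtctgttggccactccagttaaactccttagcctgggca
The inner peak matched no other sequence of the genome over 250 or more bases, and its single RUNX motif lay outside the central 200 bp.

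**Figure D2:**
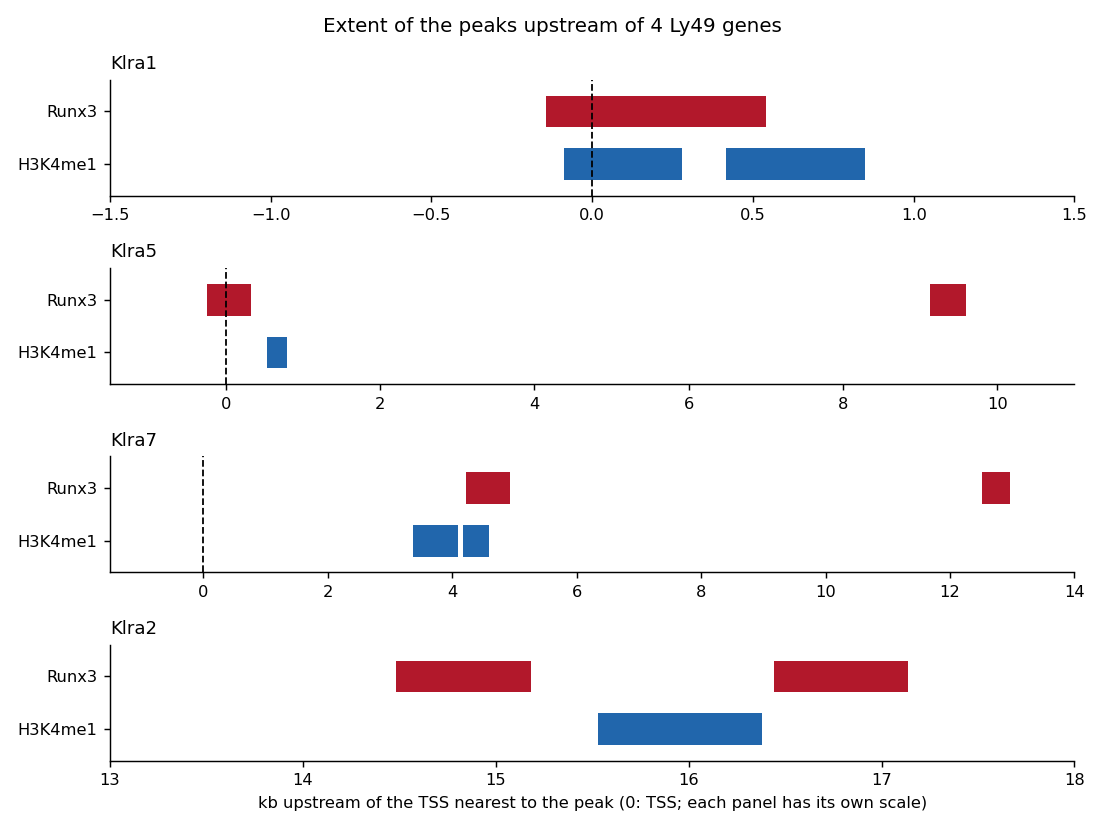
Extent of the Runx3 (red) and H3K4me1 (blue) peaks upstream of Klra1, Klra5, Klra7 and Klra2, in kb from the annotated transcript start nearest to each peak (dashed line at 0, each panel with its own scale). The Runx3 peaks of Klra1 and of element A at Klra7 overlap H3K4me1 peaks, whereas at Klra5 and Klra2 the H3K4me1 peak lies beside the Runx3 peaks.

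In total, 2 of the 8 Runx3 peaks of the Ly49 genes overlapped an H3K4me1 peak (25.0%, 95% Wilson interval 7.15 to 59.1, which covers counting error only), against 48.4% of all Runx3 peaks. The interval of the Ly49 peaks contains the value of the whole list, but it treats the peaks as independent. Several of them lie over copies of the same sequence, so the interval is no test. When an H3K4me1 peak within 1 kb was enough, the counts were 5 of 8 and 61.3% of the list. Counted by gene, 3 of the 10 had a Runx3 peak that overlapped an H3K4me1 peak, against 20.5% of all protein-coding genes, and these were Klra1, Klra7 and, through its long transcript, Klra9. A RUNX motif was present in 8 of 8 peaks, against 96.0% of the whole list, and in the central 200 bp of 7 of 8, against 77.0%. The motif variant TGTGGT was present in 7 of the 8, the exception being the inner peak of Klra2. The Ly49 peaks held a median of 2 RUNX motifs, compared with 3 in the whole list, and a median of 3 ETS motifs, as did the whole list. Their median width was 628 bp for Runx3, compared with 704 bp, and 425.5 bp for H3K4me1, compared with 689.0 bp.

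The Runx3 peaks farther upstream of Klra5 and Klra7 were also copies of each other. They were 84.1% identical over 500 bp, and they are called element B. Element B held 2 RUNX motifs shared by both peaks and no adjacent ETS motif. The central 300 bases of the Klra7 peak are given (chr6:130195922-130196221, minus strand), because both shared motifs fall within it and stand in capitals.
Klra7, element B: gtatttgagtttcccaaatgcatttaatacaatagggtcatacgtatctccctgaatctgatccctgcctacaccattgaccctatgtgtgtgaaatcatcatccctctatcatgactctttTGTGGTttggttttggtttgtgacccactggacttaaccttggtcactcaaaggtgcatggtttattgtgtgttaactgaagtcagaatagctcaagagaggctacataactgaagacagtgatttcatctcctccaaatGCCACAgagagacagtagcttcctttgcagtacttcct
There were 7 copies of element B, 1 each upstream of Klra1, Klra3, Klra5, Klra6, Klra7, Klra9 and Klra10, and only those of Klra5 and Klra7 lay under a Runx3 peak. The copy of Klra1 was 57.1 kb away and in the opposite orientation. The motif TGTGGT was present at the aligned place in 6 of the 7 copies. The exception was Klra9, as the comparison with Klra7 and with Klra3, which also had no peak, shows.
Klra7, Runx3 peak: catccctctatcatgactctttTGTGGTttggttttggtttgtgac
Klra5, Runx3 peak: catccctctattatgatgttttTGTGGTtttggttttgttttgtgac
Klra3, no peak: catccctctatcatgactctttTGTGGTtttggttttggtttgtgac
Klra9, no peak: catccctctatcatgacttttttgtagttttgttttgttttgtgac
The motif lay 25 bp from the peak centre at Klra7 and 72 bp at Klra5. None of the 7 copies overlapped an H3K4me1 peak or had one within 1 kb.

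Over the whole cluster, 15 copies of element A with at least 250 aligned bases were found, and no copy was found elsewhere in the genome. Of these, 4 lay under Runx3 peaks. Those without a peak comprised the copies of Klra3, Klra4, Klra6, Klra8, Klra9 and Klra10, the copies of Klra11, Klra14 and Klra23, which are neighbouring Klra genes outside the 10, a copy that lay 88.4 kb upstream of Klra5, and a copy 30.4 kb upstream of Klra2. The shared RUNX motif was present in 7 of the 15, all of them followed by the ETS motif. The motif was defined from the peaks of Klra1, Klra5 and Klra7, so its presence in those 3 is given and not a finding. Of the other copies, those of Klra3, Klra6, Klra9 and Klra10 held it. Copies with the motif held 4 to 7 ETS motifs in 500 bp and those without it 1 to 3, where the median window of 500 bp along chromosome 6 held 1. The former include the ETS motif next to the RUNX motif, and most copies closely resemble another one. The copies are therefore not independent, and these ranges are a description. An H3K4me1 peak lay over or within 1 kb of each of the 4 copies under Runx3 peaks and of 1 of the other 11, the copy 30.4 kb upstream of Klra2. By overlap alone, the counts were 2 of the 4 and 1 of the 11. Of all Runx3 peaks in the list, 61.3% had an H3K4me1 peak within 1 kb and 48.4% overlapped one. Reads that could not be placed would limit both marks at these copies, so the counts are a description.

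The copies resemble each other, so some reads may not have been placed, but reads were not examined here. The reads were 40 bp long and only uniquely aligned ones had been kept. The share of 40-mers found once in the genome therefore gives where reads could have been placed. The number of mismatches allowed in the alignment is not known here. The median share was 84.8% over the copies of element A and 82.4% over those of element B. Within 500 bp around the aligned place, this share was 91.3% at Klra1, 92.8% at Klra7, 70.3% at Klra5 and 100% at the bound copy of Klra2. Among the copies with the RUNX motif and no peak, it was 88.1% at Klra10, 74.2% at Klra6, 53.1% at Klra9 and 49.5% at Klra3. By exact match, the ranges of copies with and without a peak overlapped, since Klra10 and Klra6 were above Klra5. When 40-mers with another match at up to 2 mismatches were also left out, the shares were 36.2% at Klra1, 41.4% at Klra7, 29.1% at Klra5, 35.1% at Klra10, 27.5% at Klra6, 1.95% at Klra9 and 2.17% at Klra3. Of the copies with the motif and no peak, Klra10 was then still above Klra5, but Klra6 was below it. The copies of Klra3 and Klra9 were 98.0% identical to each other, the closest pair of element A. Those of Klra5 and Klra6, with and without a peak, were 95.9% identical, and those of Klra1 and Klra7, both with a peak, 93.9%. For element B, the shares of 40-mers found once were 100% at Klra7 and 82.4% at Klra5, and without a peak 100% at the distant copy of Klra1, 90.0% at Klra10, 77.7% at Klra6, 45.1% at Klra9 and 44.5% at Klra3. The distant copy of Klra1 held the RUNX motif, and 99.6% of its 40-mers were found once even with up to 2 mismatches. The copy of element A 30.4 kb upstream of Klra2, also without a peak, had 100% by exact match and 97.8% with up to 2 mismatches. It held no RUNX motif in these 500 bp. At the copies with lower shares, absence of Runx3 and reads that could not be placed cannot be told apart in these lists. Nor can a copy that the ICR mice lack be told from one without Runx3, since the Klra genes present differ between mouse strains.

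**Figure D3:**
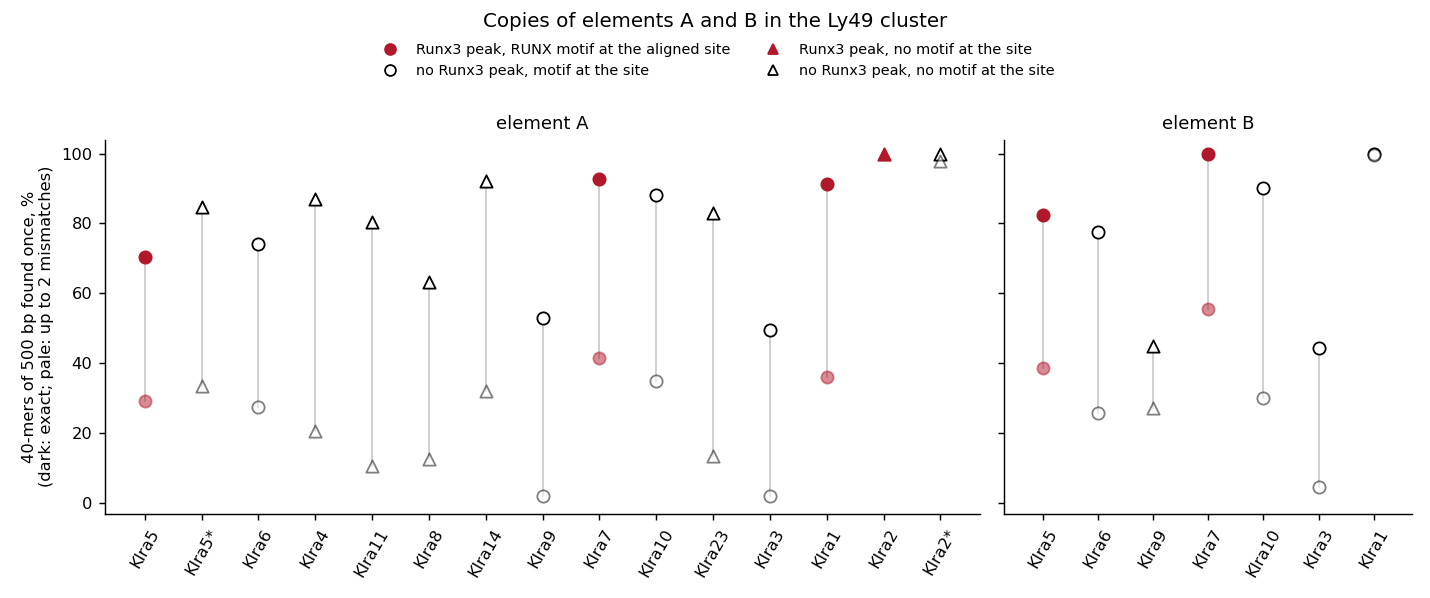
Share of 40-mers found once in the genome in the 500 bp around the shared site of each copy of element A (15 copies) and element B (7 copies), by exact match (dark) and with up to 2 mismatches (pale). Copies are named by the Klra gene they lie upstream of, with an asterisk for a second, more distant copy, red symbols lie under a Runx3 peak and circles hold the RUNX motif at the aligned site. Copies with and without a peak overlap, and the copies of Klra3 and Klra9 are the lowest of element A.

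For the genes as a whole, the share of 40-mers found once in the gene and its flanks ranged from 57.5% at Klra8 to 82.8% at Klra6, with a median of 73.8%. The median of the other 1161 protein-coding genes of chromosome 6 was 93.6%. The shares were 81.6% at Klra5, 80.0% at Klra1, 79.1% at Klra7, 67.4% at Klra9 and 63.2% at Klra2, which had Runx3 peaks. They were 82.8% at Klra6, 79.4% at Klra4, 68.4% at Klra10, 65.5% at Klra3 and 57.5% at Klra8, which had none. Genes with and without a peak thus overlapped in this measure, and by exact match the gene with the highest share had none. At up to 2 mismatches the shares fell to between 13% at Klra8 and 48.9% at Klra5. The order then changed, with Klra5 and Klra2 (46.5%), which had peaks, above Klra6 (44.5%), which had none, and Klra1 (43.6%), which had a peak, below it. Of the 188 other genes of chromosome 6 whose share lay within the range of the Ly49 genes, 13.3% (25 genes) had a Runx3 peak and 16.0% (30 genes) an H3K4me1 peak. Over the 1161 other genes these values were 40.9% and 46.5%. The 8 Runx3 peaks themselves stood in sequence with 78.5% to 100% of 40-mers found once, whereas 95% of the 658 Runx3 peaks of chromosome 6 had a share above 93.1%.

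**Figure D4:**
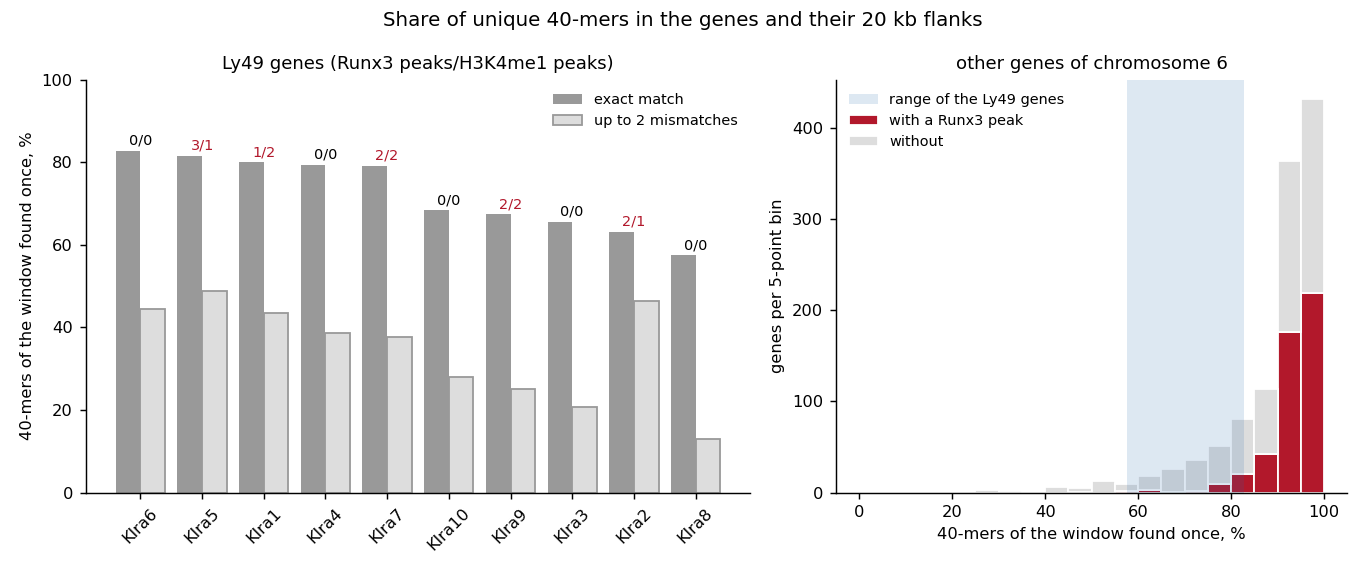
Share of 40-mers found once in each Ly49 gene and its 20 kb flanks, by exact match and with up to 2 mismatches (left, with the number of Runx3 and H3K4me1 peaks above each bar, red where there is a Runx3 peak), and the same share by exact match for the other 1161 genes of chromosome 6 (right, genes per bin of 5 points, red with a Runx3 peak). The Ly49 genes lie between 57.5% and 82.8%, below the median of 93.6%.

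By the distance from a start to the centre of the nearest Runx3 peak, the genes fell in the order Klra5 (39 bp), Klra1 (197 bp), Klra7 (4569 bp), Klra2 (14831 bp), Klra10 (35875 bp), Klra9 (44779 bp), Klra3 (49497 bp), Klra6 (99948 bp), Klra8 (107993 bp) and Klra4 (140252 bp). There is no replicate spread to set beside these distances, and they rest on the annotated starts. The nearest peaks of Klra5, Klra1 and Klra7 lay over copies of the same element A. Its aligned site was 99, 198 and 4578 bp upstream of their starts. In copies without a peak it was 4634 bp upstream at Klra9, 4709 bp at Klra3 and 4858 bp at Klra6. Whether the starts are annotated at matching places was not tested, so the order does not separate promoter peaks from distal ones. The 2 activating receptor genes, Klra8 and Klra4, stood at the far end, next to the inhibitory Klra6 (99948 bp). All of these genes lie in the same stretch of 310 kb without a Runx3 peak, given below, so their ranks are not independent. Whether the distance differs by receptor class was not tested. From the start of the gene as annotated, the median was 42.7 kb for the Ly49 genes and 52.8 kb for all protein-coding genes. From the peak of Klra5 at 129876791 to that of Klra7 at 130187558, a stretch of 310 kb held no Runx3 peak. It spans Klra6, Klra4, Klra11, Klra8, Klra14, the short transcripts of Klra9 and also Klra7 itself, whose peaks lie upstream of it. A stretch of 318 kb held no H3K4me1 peak. Such gaps were not rare, as 87 of the 657 spaces between neighbouring Runx3 peaks on chromosome 6 (13.2%) were longer, although their median was 53.7 kb. In this stretch 69.5% of 40-mers were found once, and 30.4% when 2 mismatches were allowed. The windows of the 10 genes merge into 5 regions of 524 kb in all, which held 15.3 Runx3 peaks per Mb, compared with 4.42 per Mb over the genome, genes and the space between them together. For H3K4me1 the values were 11.5 and 13 per Mb.

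Other lectin-like receptor genes of chromosome 6 were set beside the Ly49 genes. The list held Klrk1 (NKG2D), Klrd1 (CD94), Klrc1 to Klrc3 (NKG2), Klre1, Klri1, Klri2, Klrb1a, Klrb1b, Klrb1c and Klrb1f (NKR-P1), Klrg1 and the flanking gene Gabarapl1. Klrg1 stands far from the others on the chromosome. A Runx3 peak was counted for 12 of these 14 and an H3K4me1 peak for 14, compared with 5 and 5 of the 10 Ly49 genes, and a Runx3 peak that overlapped H3K4me1 for 6 of 14, compared with 3 of 10. The shares of all protein-coding genes were 41.1%, 51.1% and 20.5%. Without Klrg1 and Gabarapl1, the counts of the list were 10, 12 and 5 of 12 genes. Windows of neighbouring genes overlap, so a peak can be counted for more than 1 gene. The median number of Runx3 peaks was 1 per gene in the list of 14 and 0.5 among the Ly49 genes, and that of H3K4me1 peaks was 2 and 0.5. The share of 40-mers found once was 50% at Klrc2, 58.8% at Klrc3 and 60.3% at Klrc1, each with 1 Runx3 peak in the window. The peak of Klrc2 was that of Klrc1, and the peak of Klrc3 was that at the start of Klrk1, where the share over the window was 85.6%.

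**Figure D5:**
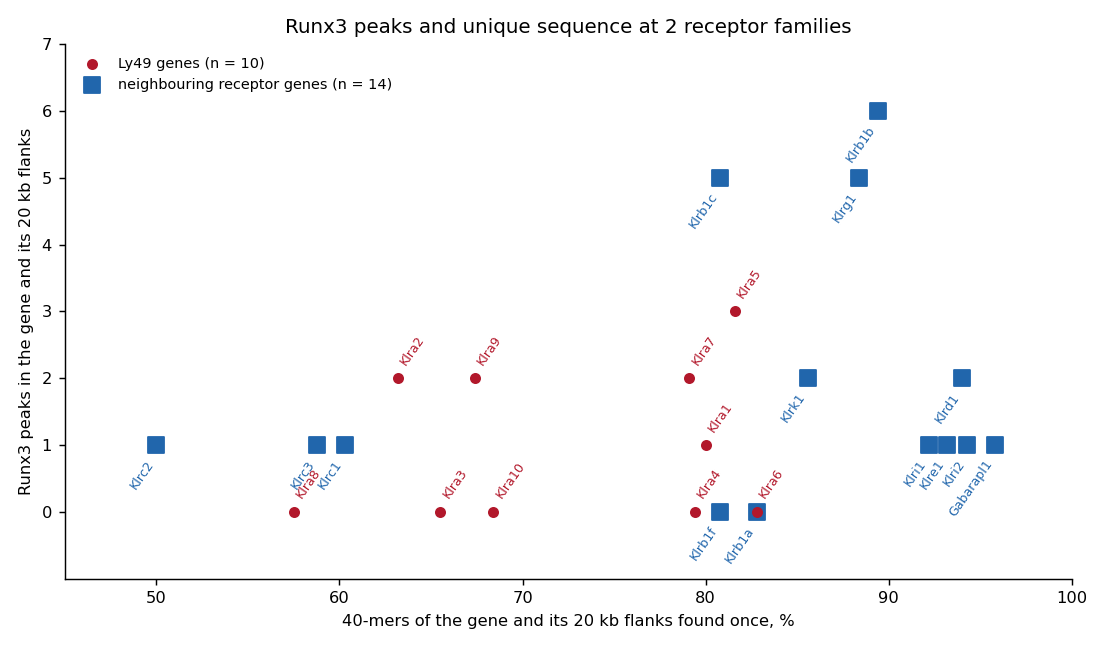
Runx3 peaks in the gene and its 20 kb flanks against the share of 40-mers found once there, for the 10 Ly49 genes (red circles) and the 14 genes set beside them (blue squares, named neighbouring in the key, although Klrg1 stands far off). Klrc2 (50%) and Klra2 (63.2%) have peaks, whereas Klra6 (82.8%) and Klrb1a (82.8%, at the same point) have none.

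Peaks were also counted at genes that act with the Ly49 receptors. Of 18 genes listed, 17 were matched to the annotation, and of these 15 had a Runx3 peak, 17 an H3K4me1 peak and 11 a Runx3 peak that overlapped one, beside 41.1%, 51.1% and 20.5% of all protein-coding genes. Among the ligands, H2-D1, a classical MHC class I heavy chain, had 3 Runx3 peaks, the nearest centred 161 bp upstream of its start, H2-K1 had 2, and B2m, the light chain, had none. Of the adaptors and kinases, the neighbours Tyrobp and Hcst each had 4 Runx3 peaks in windows that overlap, the nearest centred 133 bp upstream of Hcst, while the kinase Fyn had 4 and Zap70 had 1. The phosphatase gene Inpp5d had 4, the nearest centred 64 bp upstream, and Ptpn6 and Ptpn11, which act downstream of inhibitory Ly49 receptors, had 1 each. Of the 7 transcription factors, Runx1 had 14, Ets1 had 3, Tcf7, Tbx21, Eomes and Gata3 had 2 each, and Cbfb, the partner subunit of the RUNX proteins, had none. Gene length was not matched in these counts, and longer genes have wider windows.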

How the data were processed

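ChIP-seq of Runx3, H3K4me1 and NIS was done by the authors on IL-2-activated NKC. Reads of 40 bp were aligned by the authors to mm9 with ELAND, only uniquely aligned reads were kept, and peaks were called with MACS on joined reads against NIS. The deposited values are none of the usual units but positions, where each peak begins and ends in bp, given by the authors without score, height or depth. Starts were counted from 0 and are given from 1. The GENCODE M1 annotation and the genome of this build gave genes and sequence. A peak belonged to a gene when it overlapped the gene or 20 kb of flank by 1 bp. Counts of 40-mers covered both strands of the whole genome. Copies were found with blastn 2.17.0 (E-value limit 1e-15, 250 or more aligned bases). Elements A and B and the motif pair were defined after the sequences were seen. Identity was that of aligned bases in 500 bp (biopython 1.88). The members, lists and named genes were chosen with earlier results of these data known, the rule naming all 10 members and fixed lists of neighbours, pathway genes and markers. One marker gene is not reported here. No test was made, since the lists hold no replicate values. The scripts for windows and for 40-mers were tested on simulated data. Calculations used python 3.11.15, numpy 2.4.6, pandas 2.3.3, scipy 1.17.1, numba 0.67.0, pysam 0.24.0, samtools 1.23.1 and matplotlib 3.10.9. Windows without flank, with other flanks and around the TSS, other overlap rules, joined peaks, all Klra genes, chromosome 6 alone and other k-mer rules were tried as alternatives.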

Additional observations from a re-analysis of the deposited data

How the results depend on the processing

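Of 46 alternatives, 38 left the value within the limits set for it and 8 moved it, and none changed a direction, as the values are counts and shares. Without flanks, the Ly49 genes held 4 Runx3 and 3 H3K4me1 peaks, with 3 genes counted for Runx3 and 2 for H3K4me1. Klra9 was again counted for both marks only through its long transcript. The share of all protein-coding genes without flanks is not given here, so these gene counts have no background beside them. With flanks of 5 kb, 4 Runx3 peaks were left. With every annotated Klra gene or pseudogene, 10 H3K4me1 peaks were counted. When an H3K4me1 peak within 1 kb was enough, 5 Runx3 peaks were counted as marked. With up to 2 mismatches, the median share of 40-mers found once was 38.1%. The alternatives for Klra9 and for copies with more aligned bases were chosen after seeing the data. No paired analysis was possible because the lists pool the libraries and no test was made, and no library could be left out for the same reason. Peak height, depth and the spread between mice were not analysed here.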

Other observations

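The Runx3 peak nearest to Klra17 was also a copy of repeated cluster sequence, an element other than A and B. Of 16 copies of it in the cluster, 1 lay under a Runx3 peak, the one 14172 bp upstream of the start of Klra17, and 2 lay under H3K4me1 peaks. The latter were the copy 3542 bp upstream of Klra7, under the H3K4me1 peak at 130186715 to 130187438, and the copy 29524 bp upstream of Klra2, under the H3K4me1 peak at 131226768 to 131227204. A RUNX motif was present in 13 of the 16 copies, and between 54.5% and 100% of their 40-mers were found once in the genome.

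With flanks of 50 kb in place of 20 kb, the 10 genes held 8 Runx3 peaks, as before, and 9 H3K4me1 peaks. The distant copies of this element and of element A upstream of Klra2, which overlap H3K4me1 peaks, had no Runx3 peak over them, and 100% of their 40-mers were found once. The copy of element A held no RUNX motif in the 500 bp around the aligned place, while that of this element held 4.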
